A study of Mus musculus with 4 samples.

Results

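The proteasome is the barrel-shaped protease that degrades ubiquitin-tagged proteins. Its core particle is a stack of alpha rings, which gate the entrance, and beta rings, which carry the cutting sites. A regulatory cap sits on the barrel: its base holds a ring of ATPases that unfold the substrate, and its lid removes the ubiquitin. Dedicated chaperones put both parts together, and other activators can take the cap's place. In heart muscle this machinery turns over sarcomere and signalling proteins, and subunit genes are known to be transcribed together under the factor encoded by Nfe2l1.

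The genes described here were all those on the array whose symbol begins with Psma to Psmg and a number, without Psmb8, Psmb9 and Psmb10, the subunits of the interferon-inducible immunoproteasome. The rule found 47 genes among the 19505 named symbols, each read by 1 probe. They comprise 13 genes of the constitutive core particle, 17 of the cap, 7 assembly factors, 5 genes of alternative activators, the inhibitor gene Psmf1 and 2 core genes of other tissues, Psma8 and Psmb11. The remaining 2 carry such a symbol without encoding a subunit: Psmc3ip, a meiotic recombination cofactor, and Psme3ip1, which encodes a partner of the activator encoded by Psme3. Psmb5, the third catalytic subunit gene of the beta ring, was not analysed here.

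RNA came from whole hearts of 4 male mice, 1 Clariom S array per heart. The left coronary artery had been tied at 8 weeks of age to cause a myocardial infarction (MI), and hearts were taken 3 months later. The 2 control hearts (Ctrl-MI, genotype Tcf21iCre/Tomato) and the 2 transgenic hearts (TTg-MI, Tcf21iCre/Tomato/MGTH2A) share the Cre driven by Tcf21, a fibroblast gene, and the Tomato reporter. The transgenic hearts add MGTH2A, known in the field as a construct for the cardiac factors Mef2c, Gata4, Tbx5 and Hand2. Animals whose ejection fraction exceeded 45% at 2 days were removed, per the labels, and the design text calls the hearts of a group independent biological replicates. The study asked what reprogramming of fibroblasts does in the chronically infarcted heart.

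Values are on a log2 scale, where 1 unit is a doubling, and array medians lay between 6.55 and 6.62. Along the first principal component of all 22206 probes, which held 58.4% of the variance, Ctrl-MI replicate 1 stood apart at -47.1, against -1.31 for the other control and 16.5 and 31.9 for the transgenic replicates 1 and 2. With arrays in this order, used throughout, the mean of 12 cardiomyocyte markers was 18.32, 18.62, 18.62 and 18.61. Of these, Mb and Atp2a2 held the same value as each other on every array, near the highest value in the data (19.93), so that such probes are bounded above and their order is not informative. The mean of 11 fibroblast markers, all lower in TTg-MI, was 13.44, 12.56, 12.04 and 10.99, and that of 11 macrophage markers, also all lower, was 9.87, 8.75, 8.36 and 7.99. The mean of 9 atrial muscle markers was 12.67, 10.31, 13.95 and 13.02, of 9 endothelial markers 12.42, 12.11, 12.44 and 11.97, and of 9 lymphocyte markers 6.08, 6.06, 5.63 and 5.66. Of these markers 6 lay under the lower quartile of at least 1 array, Bmp10 and 5 lymphocyte genes. Of the 9 atrial markers 6 were higher and 3 lower in TTg-MI. Bmp10 differed most, by 6.75, at 5.31 and 5.39 in Ctrl-MI against 12.38 and 11.82 in TTg-MI. Ctrl-MI replicate 2 was low for Sln, Myl4 and Myl7, at 7.90, 7.70 and 5.61. The other arrays held 13.06 to 14.42, 14.61 to 16.34 and 10.44 to 12.45 for these genes. Among the lymphocyte markers Jchain had by far the largest difference, -2.63, at 8.72 and 8.51 in Ctrl-MI against 5.85 and 6.13 in TTg-MI. The median difference of the 9 lymphocyte markers was -0.14, with 7 lower and 2 higher in TTg-MI. In whole-heart RNA, fewer cells of a type and less RNA per cell cannot be told apart.

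Proteasome genes differed little between the groups. No member passed limma after Benjamini-Hochberg adjustment over all probes, where 0.0045% of probes passed. The smallest adjusted p of any member was 0.568. An ordinary linear model called 0 members after adjustment, but it also called 0 of all 22206 probes, so its count is not informative for the members. For 46 of the 47 the TTg-MI mean lay within 0.5 log2 units of the Ctrl-MI mean, as it did for 89.9% of all probes. At an unadjusted p under 0.05 there were 3 members with a lower TTg-MI mean, beside 5.07% of all probes, and 0 with a higher one, beside 3.18% (8.25% in either direction). Limma's 95% intervals reached at most from -1.03 to 0.93, so that for single members a change of up to about a doubling stays within the error.

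The TTg-MI mean was the lower one for 32 of the 47, or 68.1%, against 47.7% of all probes, but for 24 of the 47 after quantile normalization. The median difference (TTg-MI minus Ctrl-MI) was -0.049 for the members and 0.011 for all probes. Leaving out Ctrl-MI replicate 1 gave -0.18 and leaving out the other control gave 0.064. Leaving out TTg-MI replicate 1 gave 0.018, so that its sign turned with either of the latter arrays removed. The transgenic hearts were both below the controls for 8 members, beside 18.7% of all probes, and both above for 4, beside 19.4%. The groups were thus apart for 25.5% of members and 38.1% of all probes, and overlapped for 35 members and 61.9% of all probes. The differences of the members had an SD of 0.21 around their mean, and those of all probes, which ran from -3.72 to 6.75, an SD of 0.35. The median absolute difference was close in both, 0.14 for the members and 0.15 for all probes.

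**Figure D1:**
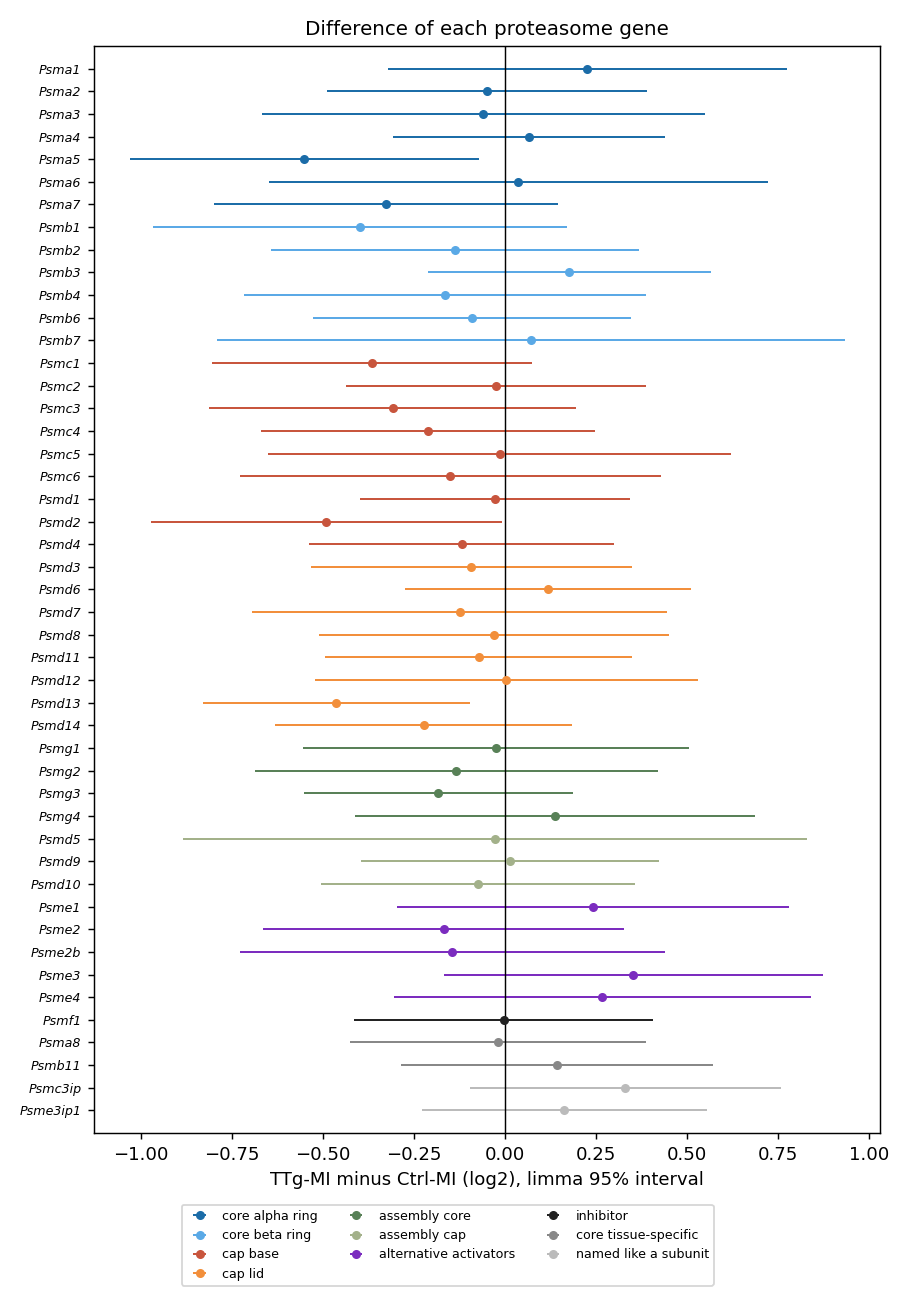
Each point is the TTg-MI minus Ctrl-MI difference (log2, x axis) of 1 proteasome gene (y axis), with limma's 95% interval from 2 arrays per group; colours mark the part of the proteasome. The intervals of Psma5, Psmd2 and Psmd13 lie wholly below 0, and those of the other 44 genes include 0.

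**Figure D2:**
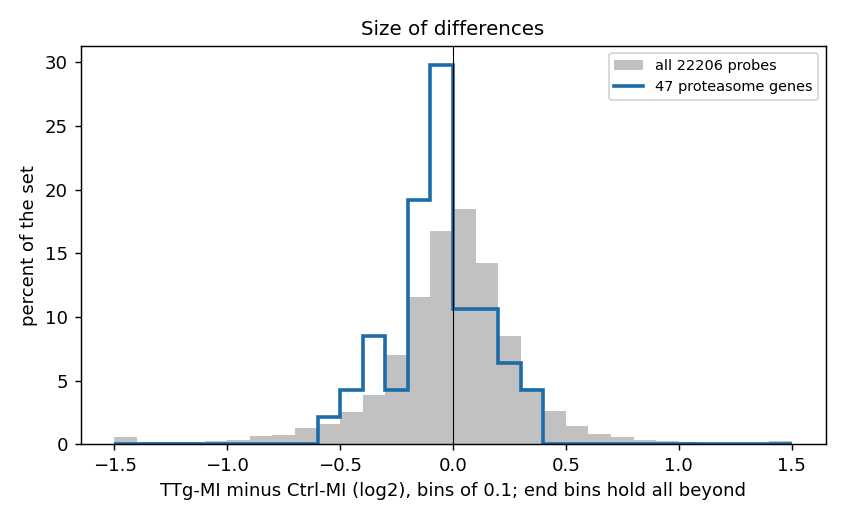
The line gives the percent of the 47 proteasome genes, and the grey area the percent of all 22206 probes, in each bin of the TTg-MI minus Ctrl-MI difference (log2, x axis). Psma5 at -0.55 is the proteasome gene farthest from 0, while all probes together reach beyond 1.5 on both sides.

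Among the alpha ring genes, Psma5 had the largest difference of any member. It measured 9.83 and 9.46 in Ctrl-MI and 8.996 and 9.20 in TTg-MI, means of 9.65 ± 0.26 and 9.10 ± 0.14 (SD, n = 2 each). Both transgenic hearts lay below both controls, a 1.46-fold lower mean. The limma difference was -0.55 (SE 0.19, adjusted p = 0.580, and 0.180 to 1 over the alternatives). It ran from -0.73 without Ctrl-MI replicate 2 to -0.37 without Ctrl-MI replicate 1.

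Psma7, whose product is also an alpha ring subunit, measured 9.78 and 10.04 in Ctrl-MI and 9.74 and 9.44 in TTg-MI. The transgenic hearts again lay below the controls, by a difference of -0.33 (95% interval -0.80 to 0.15). Psma1 measured 11.90 and 12.42 in Ctrl-MI and 12.30 and 12.48 in TTg-MI, with Ctrl-MI replicate 1 the low array, and Psma4 measured 12.46, 12.56, 12.56 and 12.60. Psma3 measured 11.29 and 11.28 in Ctrl-MI and 10.90 and 11.55 in TTg-MI, so that the transgenic hearts lay on either side of the controls. Psma6 did the same, with 11.78 and 11.96 against 11.53 and 12.28. Psma2, the seventh alpha gene, differed by -0.049. Of the 7 alpha genes 4 had a lower TTg-MI mean, 3 after quantile normalization, and the median difference was -0.049.

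All 6 measured genes of the beta ring were higher on replicate 2 than on replicate 1 in both groups, which held for 25.6% of all probes. Psmb7, which encodes the subunit with trypsin-like activity, spread widest, at 12.02 and 13.01 in Ctrl-MI against 12.42 and 12.75 in TTg-MI. The controls enclosed the transgenic hearts, and the difference of 0.071 (SE 0.35) became -0.42 when Ctrl-MI replicate 1 was left out and 0.57 when the other control was. Psmb6, the caspase-like catalytic subunit gene, measured 12.37 and 12.56 in Ctrl-MI and 12.25 and 12.51 in TTg-MI, a difference of -0.090 (95% interval -0.53 to 0.35).

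The structural beta genes overlapped between groups as well, with 1 exception. Psmb1 had the largest difference, -0.40 (95% interval -0.97 to 0.17), from 12.91 and 13.34 in Ctrl-MI to 12.53 and 12.92 in TTg-MI. Psmb2 measured 10.99 and 11.32 in Ctrl-MI and 10.85 and 11.19 in TTg-MI, and Psmb4 10.30 and 10.75 against 10.20 and 10.52. In both genes replicate 1 of each group was the low array and the groups overlapped. Psmb3 was the exception, with both transgenic hearts, at 10.59 and 10.76, above both controls at 10.49 and 10.51, a difference of 0.18 (95% interval -0.21 to 0.56). Over the 13 core genes 8 had a lower TTg-MI mean, 7 after quantile normalization, and the median difference was -0.059. Leaving out Ctrl-MI replicate 1 gave -0.21 and TTg-MI replicate 2 gave -0.22, while leaving out the other control gave 0.058 and TTg-MI replicate 1 gave 0.040.

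All 9 genes of the cap base had a lower TTg-MI mean, though 6 of 9 after quantile normalization, 5 of 9 without Ctrl-MI replicate 2 and 6 of 9 without TTg-MI replicate 1. Psmd2 encodes the scaffold that receives ubiquitin-binding shuttle proteins. It measured 12.52 and 12.88 in Ctrl-MI and 12.10 and 12.32 in TTg-MI, means of 12.70 ± 0.25 and 12.21 ± 0.16 (SD, n = 2 each), with both transgenic hearts below both controls. The limma difference was -0.49 (SE 0.19, adjusted p = 0.600, and 0.362 to 1 over the alternatives). Against the first control alone it was -0.31, and against the other -0.67.

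The 6 ATPase genes Psmc1 to Psmc6 had a median difference of -0.18. Psmc1 measured 11.87 and 12.16 in Ctrl-MI and 11.57 and 11.72 in TTg-MI, without overlap, a difference of -0.36 (95% interval -0.80 to 0.074). Psmc3 stood at 13.54 and 13.56 in the controls, close together, and at 13.01 and 13.47 in the transgenic hearts, both below. For Psmc4 TTg-MI replicate 1 alone was low, at 10.76, beside 11.19, 11.13 and 11.13 on the other arrays. Psmc5, at 8.78 and 9.47 against 9.08 and 9.15, and Psmc2, at 13.00 and 13.24 against 13.05 and 13.13, had controls on both sides of the transgenic hearts. Their differences of -0.015 and -0.025 turned to 0.031 and 0.064 after quantile normalization. Psmc6 differed by -0.15, Psmd4, a ubiquitin receptor gene, by -0.12, and Psmd1 by -0.027 with an interval from -0.40 to 0.34.

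In the lid, Psmd13 separated the groups with the least spread within them. This structural subunit gene measured 13.53 and 13.50 in Ctrl-MI and 13.05 and 13.06 in TTg-MI, means of 13.52 ± 0.02 and 13.05 ± 0.01 (SD, n = 2 each). The transgenic hearts were 1.38-fold lower. The limma difference of -0.46 (SE 0.15) had an adjusted p of 0.568, and of 0.335 to 1 over the alternatives. Leaving out any single array kept it between -0.48 and -0.45.

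Psmd14, the gene of the enzyme that cuts ubiquitin off the substrate, was also without overlap, at 9.36 and 9.37 in Ctrl-MI and 9.26 and 9.02 in TTg-MI. Its difference of -0.22 had an interval from -0.63 to 0.18. Psmd7, the gene of that enzyme's partner in the lid, measured 15.17 and 14.77 in Ctrl-MI and 14.63 and 15.06 in TTg-MI, so that the order of the arrays crossed. The other lid genes among the members overlapped between groups, and lid genes whose symbol does not match the rule are not counted here. Psmd6 measured 10.44 and 10.55 against 10.69 and 10.53, Psmd8 11.06 and 11.38 against 11.32 and 11.06, and Psmd12 13.29 and 13.76 against 13.44 and 13.62. Psmd3 and Psmd11 differed by -0.092 and -0.072. Over the 17 cap genes 15 had a lower TTg-MI mean, 11 after quantile normalization and 9 without Ctrl-MI replicate 2, and the median was -0.12. It was -0.23 without Ctrl-MI replicate 1, -0.025 without the other control and -0.028 without TTg-MI replicate 1.

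Assembly factors are the chaperones that leave the finished particle. Their median difference was -0.028 over 7 genes, 0.010 after quantile normalization, and from -0.21 to 0.13 when Ctrl-MI replicate 1 or the other control was left out. Psmg3 alone was without overlap, with both transgenic hearts below both controls, beside 18.7% of all probes. It stood near the arrays' lower quartiles, at 5.87 and 5.84 in Ctrl-MI and 5.64 and 5.71 in TTg-MI (-0.18, 95% interval -0.55 to 0.19). Its partner gene Psmg4 was the only member under the lower quartile of an array, where a probe was not shown to be above background. It measured 4.96 and 5.46 in Ctrl-MI and 5.24 and 5.46 in TTg-MI, against lower quartiles of 5.41 to 5.48. Psmg2 measured 9.68 and 10.21 against 9.72 and 9.90, and Psmg1, the gene of its partner, differed by -0.024.

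Of the chaperone genes for the cap base, Psmd5 spread over a full log2 unit within the controls, from 7.72 to 8.75, around the transgenic hearts at 8.19 and 8.22. Against Ctrl-MI replicate 1 alone its difference was 0.49, and against the other control alone -0.55. Psmd9 stood at 7.34 and 7.48 against 7.33 and 7.53, and Psmd10 at 7.13 and 7.40 against 7.26 and 7.12, both overlapping. Without Ctrl-MI replicate 1 all 7 assembly genes had a lower TTg-MI mean, and without Ctrl-MI replicate 2 there was 1 of 7.

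Among the alternative activators and the inhibitor 3 of 6 genes had a higher TTg-MI mean and 3 a lower one. The median of 0.12 was 0.080 after quantile normalization and ran from 0.044 without Ctrl-MI replicate 1 to 0.23 without TTg-MI replicate 2. Psme3, the gene of a nuclear activator, measured 10.92 and 11.36 in Ctrl-MI and 11.61 and 11.38 in TTg-MI, both transgenic hearts above both controls. Its difference was 0.35 (SE 0.21, 95% interval -0.17 to 0.87). Against Ctrl-MI replicate 2 alone it was 0.13, and against the other control alone 0.57.

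Psme4, which encodes the large nuclear activator, measured 12.41 and 12.77 in Ctrl-MI and 13.09 and 12.62 in TTg-MI. Psme1 measured 15.60 and 16.12 against 16.16 and 16.04. Both had a low value on Ctrl-MI replicate 1 and overlapped between groups, and the differences of 0.27 for Psme4 and 0.24 for Psme1 became 0.087 and -0.016 without that array. Without TTg-MI replicate 1, the high array for both, they were 0.034 and 0.18. Psme2, whose product joins that of Psme1 in the interferon-inducible activator, ran the other way, at 9.27 and 8.89 in Ctrl-MI and 9.04 and 8.79 in TTg-MI. Psme2b, a close relative of Psme2, measured 7.82 and 7.92 against 8.02 and 7.42. Whether probes of these related genes read each other's transcript was not analysed here. The inhibitor gene Psmf1 measured 10.79 and 10.65 in Ctrl-MI and 10.62 and 10.82 in TTg-MI, a difference of -0.0035 (95% interval -0.41 to 0.41).

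The remaining members were Psma8, the testis core gene, with a difference of -0.020, and Psmb11, the thymus core gene, with 0.14. Their values between 5.54 and 5.87 lay near the arrays' lower quartiles. Psmc3ip, at 6.29 and 6.26 in Ctrl-MI against 6.75 and 6.46 in TTg-MI, and Psme3ip1, at 10.13 and 10.31 against 10.37 and 10.39, each had both transgenic hearts above both controls. Their differences were 0.33 (95% interval -0.10 to 0.76) and 0.16 (-0.23 to 0.55). Neither encodes a proteasome subunit.

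**Figure D3:**
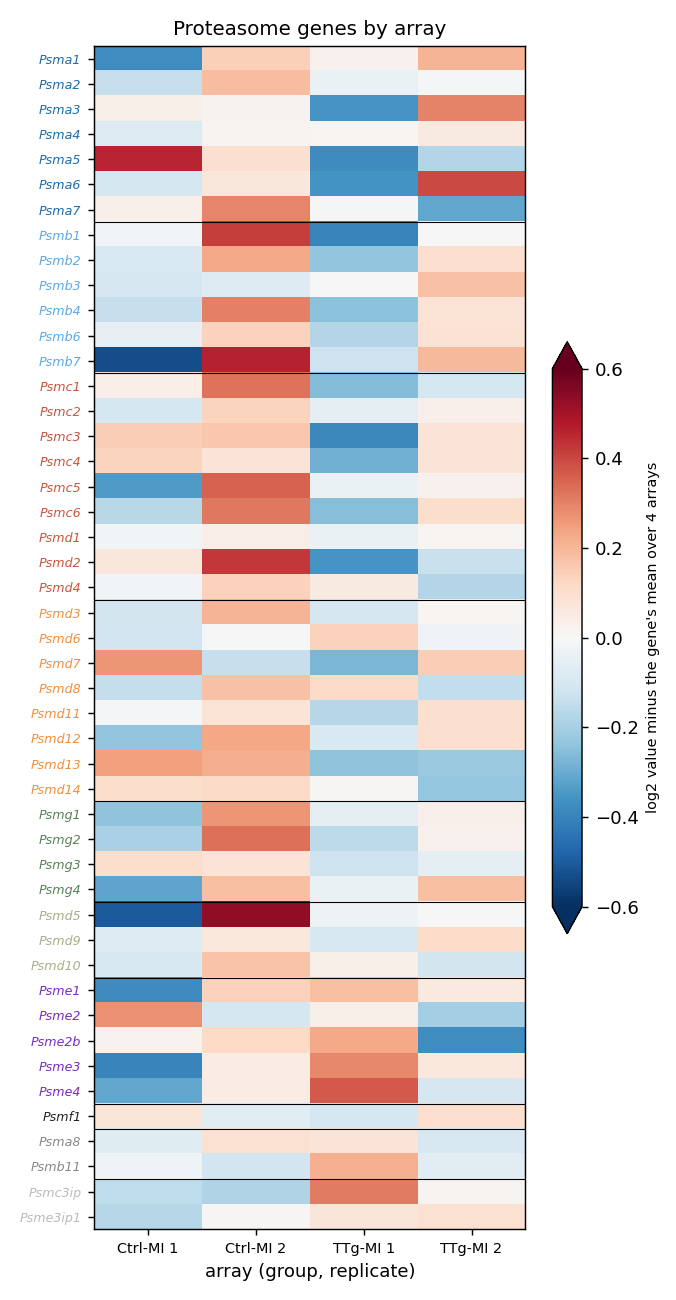
Rows are the 47 proteasome genes, ordered and coloured by part, and columns are the 4 arrays; colour gives the log2 value minus the gene's mean over the arrays. Ctrl-MI replicate 2 holds the highest value for 25 genes and TTg-MI replicate 1 the lowest for 19.

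Across the 4 arrays, Ctrl-MI replicate 2 was the highest of the 4 arrays for 25 members, or 53.2%, against 20.7% of all probes. TTg-MI replicate 1 was the lowest for 19, or 40.4%, against 22.3%, and Ctrl-MI replicate 1 for 18, or 38.3%, against 28.4%. Replicate 2 exceeded replicate 1 in both groups for 26 of 47 members, beside 25.6% of all probes. This was so for 10 of 13 core, 10 of 17 cap and 5 of 7 assembly genes, and for 0 of the 6 activator and inhibitor genes. Replicate numbers are not said to link hearts of the 2 groups.

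Setting each gene to its own mean over the 4 arrays, the core genes averaged -0.085 and 0.18 on the Ctrl-MI arrays and -0.18 and 0.083 on the TTg-MI arrays. The cap genes averaged -0.015, 0.17, -0.13 and -0.021, with the same highest and lowest array as the core. The arrays between them, Ctrl-MI replicate 1 and TTg-MI replicate 2, stood in the opposite order. Cap minus core averages ran from 0.070 on Ctrl-MI replicate 1 to -0.10 on TTg-MI replicate 2. The assembly genes averaged -0.19, 0.23, -0.067 and 0.025. The activators and inhibitor differed in order, at -0.12, 0.029, 0.17 and -0.075, with TTg-MI replicate 1 their highest array where it was the lowest for core and cap. These averages describe 4 hearts and were not tested. All 11 fibroblast markers were highest on Ctrl-MI replicate 1 and lowest on TTg-MI replicate 2, and the mean of the cardiomyocyte markers was lowest on Ctrl-MI replicate 1. That of the atrial markers was lowest on Ctrl-MI replicate 2, at 10.31 beside 12.67 to 13.95 on the other arrays. The part of cell composition in these array differences was not tested.

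**Figure D4:**
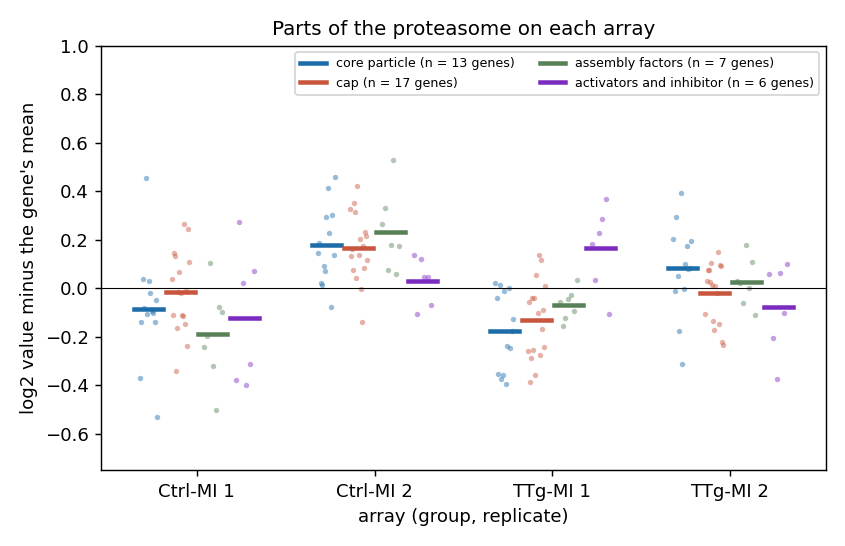
Points are genes and bars are the mean of each part of the proteasome on each of the 4 arrays (x axis), as log2 value minus the gene's mean (y axis). Core and cap bars are both highest on Ctrl-MI replicate 2, at 0.18 and 0.17. The activators and inhibitor are highest on TTg-MI replicate 1, at 0.17.

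The 3 immunoproteasome genes left out of the member list were all lower in transgenic hearts without overlap, beside 18.7% of all probes, whereas the groups overlapped for Psmb6 and Psmb7, the constitutive genes that Psmb9 and Psmb10 replace. Psmb8 measured 8.80 and 8.27 in Ctrl-MI and 8.24 and 7.24 in TTg-MI (-0.80, SE 0.37), Psmb9 6.62 and 6.44 against 6.32 and 5.71 (-0.51, SE 0.24), and Psmb10 8.82 and 9.17 against 8.47 and 8.30 (-0.61, SE 0.19). Limma gave adjusted p of 0.643, 0.645 and 0.555. Within arrays, the Psmb10 value minus the Psmb7 value was 0.68 lower in TTg-MI, and Psmb9 minus Psmb6 was 0.42 lower. An exact two-sided permutation test of 2 against 2 arrays cannot go below p = 0.333. That test therefore cannot decide on these differences between gene pairs, which are given as values only.

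Of 14 measured genes of the interferon-gamma response 13 were lower in TTg-MI, beside 47.7% of all probes, with a median of -0.34. The smallest limma p belonged to Gbp3 (-0.58, SE 0.18), Ifit2 (-0.66, SE 0.23), the MHC class I light chain gene B2m (-0.82, SE 0.32) and Bst2 (-0.70, SE 0.29). None passed limma after adjustment, and 3 were lower at an unadjusted p under 0.05, beside 5.07% of all probes. Ifit3, named after its values were seen, had a difference of -0.80 (SE 0.36). The macrophage and fibroblast marker means given above ranked the hearts in the same order as the Psmb8 and Psmb9 values. The mean of the 14 interferon-gamma response genes did so too, at 9.17, 8.74, 8.64 and 8.49. The first principal component of all probes also placed the hearts in this order, so that the order is not particular to these markers. Psmb10 had another order, with its highest value on Ctrl-MI replicate 2. The part of these cell types was not tested.

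**Figure D5:**
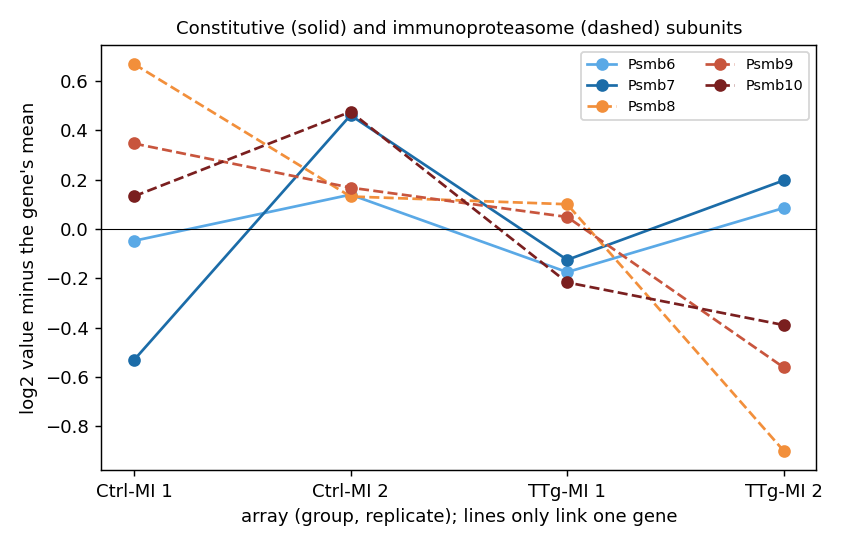
Log2 value minus the gene's mean over 4 arrays (y axis) by array (x axis) for the constitutive catalytic genes Psmb6 and Psmb7 (solid) and the immunoproteasome genes Psmb8, Psmb9 and Psmb10 (dashed). The dashed genes end lowest on TTg-MI replicate 2, while Psmb6 and Psmb7 are above their means there.

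Genes of factors that bind or help build the proteasome were measured for 10 of the 14 names listed, and 0 passed after adjustment. At an unadjusted limma p under 0.05, 2 were lower, beside 5.07% of all probes, and 0 were higher, beside 3.18%. The lower ones were Zfand2a, a stress-induced proteasome-binding protein gene (-0.56, SE 0.18), and Txnl1, a thioredoxin gene of the cap (-0.41, SE 0.15). Pomp, the maturation chaperone of the core, measured 11.87 and 11.97 in Ctrl-MI and 11.86 and 11.65 in TTg-MI. Uchl5, a cap-bound deubiquitinase gene, measured 8.33 and 8.91 against 8.66 and 9.15. The median of these 10 genes was 0.085.

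Genes tied to the transcription of subunits, most of them transcription factor genes, were measured for 9 of 10 names. Their median was 0.0036, with 0 past the adjustment. Nfe2l1 stood at 16.73 and 16.40 in Ctrl-MI and 16.36 and 16.32 in TTg-MI, a difference of -0.23 (95% interval -0.67 to 0.22). The smallest p in this list belonged to Nfe2l2, a stress-response factor gene (-0.44, SE 0.19), Foxo3, a factor of muscle protein breakdown (0.47, SE 0.20), and Stat3 (-0.61, SE 0.28). None of them had an unadjusted limma p under 0.05, beside 8.25% of all probes. Nfyc, a CCAAT-binding subunit gene, differed by 0.46 (SE 0.36), with Ctrl-MI replicate 1 low at 10.49 and the other arrays between 11.41 and 11.58.

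Promoter sequences were searched because subunit genes are known to share regulation through the antioxidant-type element that the Nfe2l1 product binds. RefSeq promoters (GRCm38.p6), 250 bases before to 50 bases after a gene's start, were matched for 39 of the 47 members through 43 entries. The element TGACNNNGC, sought on both strands, occurred in 5 of the 43 entries, or 11.6%, against 12.4% of all 32851 promoters. The CCAAT motif, also on both strands, occurred in 15, or 34.9%, against 37.4%. Both shares thus lay near those of all promoters. The 5 genes with the element lay in different parts of the proteasome, and their differences ran from -0.15 for Psmc6 to 0.27 for Psme4. Positions are counted from 0 at the gene's start, capitals mark the match, and each window is shown 5′ to 3′ on the gene's strand to let the flanks be compared.
Psmb6: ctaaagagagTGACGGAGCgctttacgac
Psmc6: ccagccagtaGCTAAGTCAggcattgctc
Psmd12: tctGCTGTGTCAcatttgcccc
Psmd9: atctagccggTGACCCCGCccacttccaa
Psme4: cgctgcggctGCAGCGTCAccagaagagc

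In genomic terms these windows are chr11:70525338-70525366 for Psmb6, chr14:45329587-45329615 for Psmc6, chr11:107479278-107479299 for Psmd12, chr5:123228149-123228177 for Psmd9 and chr11:30771758-30771786 for Psme4, all on the plus strand. The matches of Psmb6 and Psme4 began at -9 and -7, at the gene's start, and that of Psmd9 at -31. Those of Psmc6 and Psmd12 lay far upstream, at -227 and -247. Of the 5, 0 had an unadjusted limma p under 0.05, beside 3 of the 47 members and 8.25% of all probes.

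The bases from -150 to -1 of 3 members are given for the largest differences in the core, the cap and the activators. Psma5 is at chr3:108256776-108256925, Psmd2 at chr16:20651502-20651651 and Psme3 at chr11:101316063-101316212, all on the plus strand. The Psme3 stretch holds 1 CCAAT motif on the opposite strand, in capitals, at -14, and the other two hold neither motif. Their GC content was 62.7%, 62.7% and 64.0%.
Psma5: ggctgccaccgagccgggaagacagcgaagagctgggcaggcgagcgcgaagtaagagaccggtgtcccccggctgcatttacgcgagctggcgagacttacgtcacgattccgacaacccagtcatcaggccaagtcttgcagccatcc
Psmd2: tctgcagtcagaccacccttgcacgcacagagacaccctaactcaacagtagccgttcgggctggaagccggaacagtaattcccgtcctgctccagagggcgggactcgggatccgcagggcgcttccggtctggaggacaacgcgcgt
Psme3: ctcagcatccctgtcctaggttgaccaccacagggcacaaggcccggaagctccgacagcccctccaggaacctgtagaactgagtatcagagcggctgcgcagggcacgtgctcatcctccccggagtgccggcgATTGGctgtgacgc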

How the data were processed

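The deposited table held 1 value per probe and array, made by the authors with a tool that the submitters' processing notes name as Affymetrix Expression Console 1.4. The deposited values were taken as log2 from their range of 4.22 to 19.93. For log base, normalization, summarization and build, the sources used here give nothing. Values were used unchanged. Of 22206 probes 19572 had 1 symbol in the platform annotation, 0 had several and 2634 were unnamed. Every probe was tested in limma 3.58.1 (R 4.3.3; lmFit, eBayes, two-sided, Benjamini-Hochberg over all probes, threshold 0.05; 2 residual and 3.56 prior degrees of freedom), and checked on simulated data. For arrays no read depth applies, and their number limits the precision.

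The members and lists were chosen with earlier results of these data known. Of 143 other genes written in lists, 124 were measured, and the rest were not analysed here. Values are given for the 4 members with the smallest and the 2 with the largest limma p in each group (alpha, beta, base, lid, activators with inhibitor, assembly), and for up to 4 genes per other list by p. Genes named outside this rule (Psma2, Psmc6, Psmd1, Psmd3, Psmd4, Psmd11, Psmg1, Psma8, Psmb11, Psmc3ip, Psme3ip1, Nfe2l1, Ifit3, Fbxo32, Trim63, Mb, Atp2a2, Jchain, Bmp10, Sln, Myl4, Myl7) were chosen after their values were seen. The alternatives were quantile normalization, median centring, leaving out dim probes, a robust intensity-trended prior, a block for replicate number, an ordinary linear model, leaving out each array, averaging a symbol's probes, and narrower member lists.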

Additional observations from a re-analysis of the deposited data

How the results depend on the processing

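No member passed the adjusted threshold in limma under any alternative run, nor in the ordinary linear model. The count over all probes, 1 in the full data, was 4 with a robust intensity-trended prior, 0 in the ordinary linear model (1241 at an unadjusted p under 0.05), and 1 to 332 as single arrays were left out, 332 without Ctrl-MI replicate 2. With the replicate number as a block it was 7, and this changed no member's call. The labels do not say that the numbers pair hearts, and within-group deviations of equal numbers correlated at 0.16 over all probes. Members lower at an unadjusted p under 0.05 numbered 0 with the trend and 0 to 4 as arrays were left out, and those higher 0 to 4. Members with a lower TTg-MI mean numbered 17 to 36 as arrays were left out. The median ran from -0.18 to 0.064 over all members and from -0.23 to -0.025 over the cap. Averaging a symbol's probes changed nothing, as each member had 1 probe. The median was -0.091 over the constitutive subunits alone and -0.054 over members above the lower quartile of every array, the latter chosen after seeing the data. After quantile normalization the sign turned for 8 of 47 members, Psmf1 (0.045), Psmd5 (0.015), Psmc2 (0.064), Psmc5 (0.031), Psmd8 (0.0070), Psma2 (0.019), Psmd1 (0.011) and Psmg1 (0.010), and after median centring for Psmf1 (0.0098). As arrays were left out it turned for 28 of 47 members: Psma1 (-0.032 to 0.48), Psma3 (-0.38 to 0.27), Psma6 (-0.34 to 0.41), Psmb2 (-0.31 to 0.031), Psmb4 (-0.39 to 0.058), Psmb6 (-0.22 to 0.040), Psmb7 (-0.42 to 0.57), Psmc2 (-0.15 to 0.095), Psmc5 (-0.36 to 0.33), Psmd5 (-0.55 to 0.49), Psmd7 (-0.34 to 0.088), Psmd8 (-0.19 to 0.13), Psmd9 (-0.087 to 0.12), Psmd10 (-0.21 to 0.061), Psmd12 (-0.23 to 0.24), Psme1 (-0.016 to 0.50), Psme2 (-0.36 to 0.020), Psme2b (-0.44 to 0.16), Psmf1 (-0.11 to 0.099), Psmg2 (-0.40 to 0.13), Psmg4 (-0.11 to 0.39), Psma2 (-0.21 to 0.11), Psma8 (-0.11 to 0.067), Psmc6 (-0.39 to 0.089), Psmd1 (-0.055 to 0.00092), Psmd3 (-0.25 to 0.064), Psmd11 (-0.21 to 0.061) and Psmg1 (-0.28 to 0.23). With 1 array left out, its group's remaining array is assumed to vary as the other group's do. The cause of these shifts was not tested.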

Other observations

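Genes upstream of the proteasome were measured in 3 further lists, and 0 of their genes passed limma after adjustment. Of 10 muscle ubiquitin ligase genes 6 were higher and 4 lower in TTg-MI, with a median log2 difference of 0.13. Trim55, a ligase gene of the sarcomere, measured 11.46 and 11.46 in Ctrl-MI and 12.00 and 11.93 in TTg-MI (0.51, SE 0.15). Traf6 was next (0.46, SE 0.18), and both were higher at an unadjusted limma p under 0.05, beside 3.18% of all probes. Trim55 and Traf6 were followed by Fbxo30 (-0.51, SE 0.24) and Asb2 (0.64, SE 0.31). For Asb2, Ctrl-MI replicate 1 was low at 15.45 beside 16.37 to 16.57 on the other arrays. The atrophy ligase genes Fbxo32 and Trim63, named after their values were seen, spread over more than 1 log2 unit within the controls, at 10.18 and 11.21 and at 13.13 and 14.41, and overlapped the transgenic hearts.

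Of 7 measured genes for ubiquitin activation and conjugation, Ube2n, which makes signalling chains, measured 11.18 and 11.44 in Ctrl-MI and 11.73 and 12.08 in TTg-MI (0.59, SE 0.20). Uba6, an activating enzyme gene, differed by -0.39 (SE 0.16), Ube2d3 by -0.22 (SE 0.15) and Ube2d2a by -0.29 (SE 0.21). Among 10 shuttling and unfolding factor genes the differences ran from -0.15 to 0.22, and 0 had an unadjusted limma p under 0.05, beside 8.25% of all probes. Ufd1 (0.22, SE 0.20), Ubqln2 (0.19, SE 0.19), Nsfl1c (-0.14, SE 0.16) and Ubqln4 (-0.15, SE 0.17) had the smallest p.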
